A study of Ovis aries with 18 samples.

Results

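The vesicle coat, Rab and sorting genes of the ovine fetal fat depot were the 153 autosomal genes whose symbols matched a fixed list of name patterns (RAB, ARF, SAR1, SEC, COP, TMED, RTN, STX, VAMP, SNAP, NSF, EXOC, TRAPP, COG, VPS, SNX, SORT1, AP1 to AP4, CLT, EPN, DNM2 and GOLG), out of 5810 genes in the deposited table. They held 630 of its 24355 SNPs. Perirenal adipose tissue (PRAT), the fat around the kidney, was taken from 18 untreated, wild type, pure bred merino fetuses (16 female, 2 male) at day 132 of gestation, and total RNA of each was sequenced as 1 library. The fetuses formed a single group without a control, each one a sample of its own from a separate dam fed at maintenance, but all had the same father and so shared paternal haplotypes. The question at each SNP was whether heterozygous animals carried unequal numbers of reads from both alleles, termed allelic imbalance (AI). The name patterns used no read count. Within each group of genes, most of those named were picked by the size and test of their imbalance, and their p-values, adjusted over all SNPs, show the most unequal SNPs and not a typical one.

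Membrane traffic moves newly made proteins and lipids from the endoplasmic reticulum (ER) through the Golgi to the cell surface and back. Coats (COPII, COPI, clathrin) bend the membrane and select cargo, small GTPases of the Rab, Arf and Sar families switch each step on, tethering complexes catch the vesicle and SNARE proteins fuse it with its target. In adipocytes this machinery secretes adipokines, moves the glucose transporter GLUT4 to the surface in response to insulin, and delivers proteins to the surface of lipid droplets. RNA of a whole tissue holds all its cells, so fewer cells of a type and less RNA per cell cannot be told apart, but both alleles of a SNP are read in the same cells. Of 10 adipocyte markers looked for, 7 had a listed SNP, among them UCP1 and ADIPOQ, whose median SNP had a mean of 11840 and 13411 reads per animal. The lowest of the 7 were LEP with 83.9, PPARGC1A with 116 and DIO2 with 157. STAR, a steroidogenic gene of the adrenal that lies near this depot, had 46.4, VWF of endothelium 253, and the muscle genes DES and MYH11 130 and 170. The part of such cells in the results was not tested.

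Reads over all SNPs totalled 2,970,824 in RS902 to 5,334,585 in RS917. Each animal was called heterozygous at 282 to 357 of the member SNPs, with a median of 43 to 75 reads at those SNPs. One animal labelled female, RS929, was called heterozygous at 29.1% of 244 X-linked SNPs, between the males at 25.4% and 32.4% and below the other 15 females at 54.1% to 69.7%. Without RS929, 166 member SNPs were called in place of 179.

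A SNP was called when reads summed over its heterozygous animals departed from equal shares in a Poisson likelihood ratio test, with a Benjamini-Hochberg adjusted p under 0.05 over all SNPs. Heterozygous reads were found at 628 of the 630 member SNPs, and 179 of these were called (28.5%), compared with 38.0% of all SNPs tested. The reference allele was higher at 138 (22.0%, against 28.9% of all SNPs) and the alternate allele at 41 (6.53%, against 9.01%). Because summing treats the reads of different animals as one sample, a quasi-binomial F test that takes each animal as a replicate was run beside it. It called 97 member SNPs (15.4%, against 24.5% of all SNPs), of which 81 had the reference allele higher (12.9%, against 19.3%) and 16 the alternate (2.55%, against 5.24%). All 97 were among the 179. Counts of calls given below for each role are to be set against the 38.0% and 24.5% of all SNPs that these tests called. At least 1 SNP was called in 91 of the 153 genes, or 59.5%, where 58.5% of all genes had one.

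The reference allele held a median share of 0.515 of the reads over member SNPs, with quartiles of 0.490 and 0.546, and 0.519 over all SNPs. When the median share of all SNPs replaced 0.5 as the null, the split of calls turned from 138 reference and 41 alternate to 80 and 95. Most called departures were small: 135 of the 179 (75.4%) lay within 0.1 of an equal share, compared with 68.1% of the called SNPs of the whole table. Of the 628 tested member SNPs, 26 were called with a share more than 0.2 from equal, against 1183 of 24244 over all SNPs. Another listed SNP lay within 5 bp at 19 of the 26. SNPs with so close a neighbour were called in 34 of 52 cases (65.4%, 32 with the reference higher), against 145 of 576 (25.2%) without one. Over the whole table these shares were 68.0% and 34.5%.

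**Figure D1:**
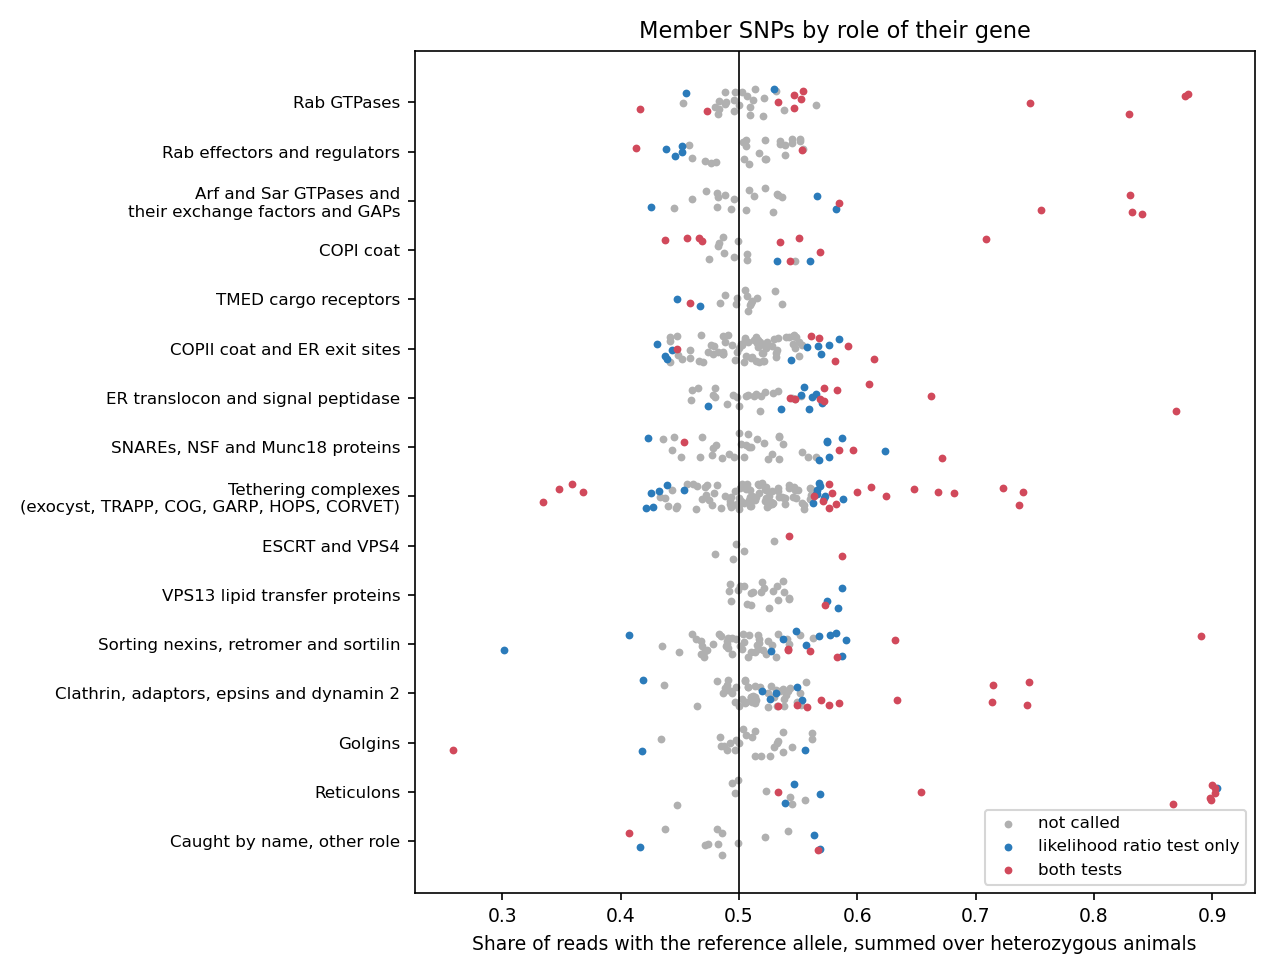
Share of reads carrying the reference allele (horizontal axis, no unit) at each tested member SNP, in rows by the role of its gene. Each point is 1 SNP summed over its heterozygous animals, coloured by the tests that called it, and the vertical line marks equal shares. Most SNPs sit near 0.5 with a tail to the right. The highest shares of about 0.90 are those of the reticulon RTN3, whereas the lowest is that of GOLGA7 at 0.258.

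All SNPs were split into 4 bins of about equal size by their heterozygous reads, a description added after the calls were known. In the lowest bin, up to 360 reads, 19.6% of 168 member SNPs and 18.7% of all SNPs were called. The next bin gave 25.7% and 30.7%, the one after it 27.9% and 40.2%, and the highest, above 1160 reads, 46.6% of 118 member SNPs and 62.3% of all SNPs. Depth was not matched within a bin: the highest held members of up to 9443 reads and other SNPs of up to 302107, and 60.5% of all its SNPs were called when those above 9443 reads were left out. In the F test the members were at 3.57%, 12.4%, 15.7% and 37.3%, and all SNPs at 6.94%, 17.4%, 26.5% and 47.0%. SNPs of 1 gene share reads and haplotypes and are not independent, and no test was made of these differences.

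**Figure D2:**
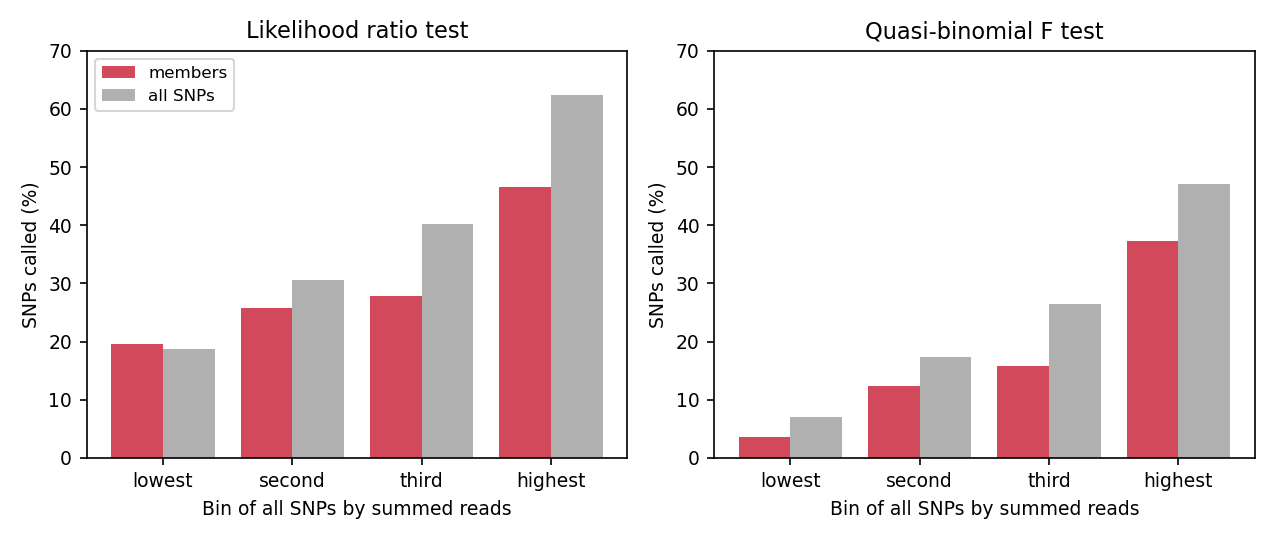
Percentage of SNPs called (vertical axes) by the likelihood ratio test and by the quasi-binomial F test in 4 bins of all SNPs by summed heterozygous reads. Red bars are member SNPs and grey bars all SNPs: in the highest bin 46.6% of members were called by the first test and 62.3% of all SNPs.

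Rab GTPases mark each membrane with its identity and recruit the factors that move and tether it. In 21 genes, 13 of 36 tested SNPs were called, 10 with the reference allele higher and 3 with the alternate, and 10 genes held a call. RAB2A, which acts between the ER and the Golgi, had the most unequal SNP of the family, in the 3' UTR (chromosome 9, 39061829 of the Oar v3.1 build). In its 15 heterozygous animals the reference share ran from 0.767 to 0.924 with a median of 0.894, and all 15 lay above 0.5 (mean 0.877 ± 0.0436 SD, permutation p = 9e-05, F test adjusted p = 1.84e-17). The adjacent SNP gave 0.877 over 14 animals, while another SNP only 69 bp away, at 39061760, was at 0.488 over 15 animals and was not called (adjusted p = 0.183).

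RAB11A, of recycling endosomes, had a single SNP, in the 3' UTR at 12546716 of chromosome 7. Its reference share was 0.686 in RS903, 0.703 in RS953, 0.705 in RS929, 0.744 in RS969, 0.776 in RS917, 0.778 in RS905, 0.786 in RS940 and 0.815 in RS943. All 8 animals thus carried the reference allele in excess, by 249 reads to 85 in total (mean 0.749 ± 0.0468 SD, exact sign-flip test p = 0.00781, the smallest that 8 animals allow). No read of the other allele was seen in the 10 homozygous animals with enough depth, over 563 reads, which allows a share of up to 0.533%. RAB4A, of early recycling, went the other way: at a synonymous SNP called heterozygous in all 18 animals the reference share was 0.294 to 0.690 with a median of 0.360, and 14 animals lay below 0.5 (F test adjusted p = 0.0179).

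Late endosomal RAB7A and lipid droplet RAB18 departed little. At the deepest of these, RAB7A 58991855, 9443 reads gave a share of 0.473, with 11 of 13 animals below 0.5 and a range of only 0.442 to 0.513 (F test adjusted p = 0.00202). RAB18 was at 0.547 over 10 animals, from 0.490 to 0.592 (adjusted p = 0.00104). Among the Rab effectors and regulators, 6 of 29 SNPs in 4 genes were called, 1 with the reference and 5 with the alternate allele higher. RAB3IL1, an exchange factor, carried a missense SNP with 10 of 12 animals below 0.5 and 1 above (0.275 to 0.576, median 0.413, F test adjusted p = 0.0103). RAB3GAP1, a subunit of the complex that activates RAB18, leaned towards the reference with 0.553 (adjusted p = 0.0344).

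**Figure D3:**
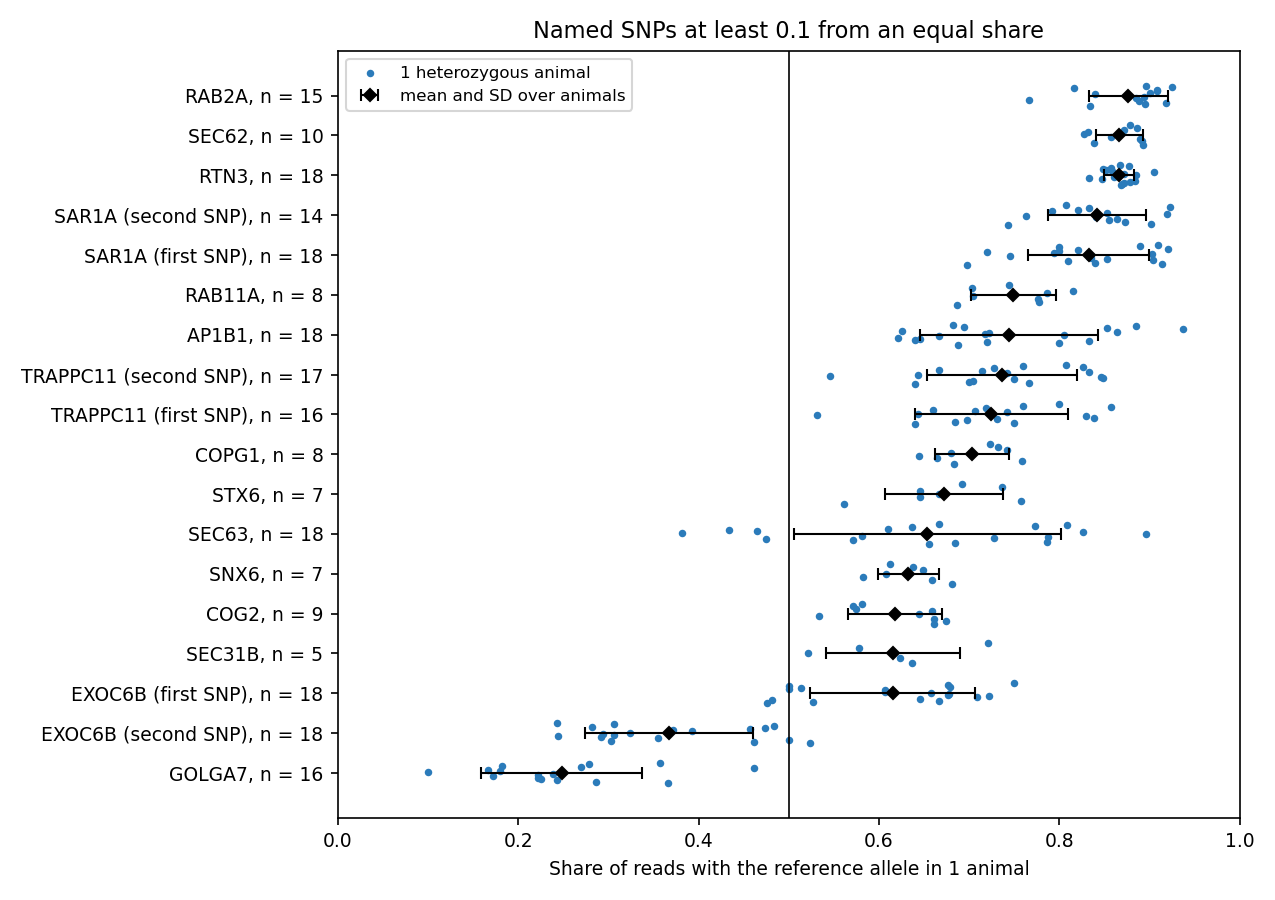
Reference share in each heterozygous animal (horizontal axis, no unit) at the 18 named SNPs called by both tests and at least 0.1 from an equal share. Blue points are animals, diamonds and bars the mean and SD over animals, and the vertical line marks 0.5. At 15 of the 18 SNPs every animal lies on one side, and both the second EXOC6B SNP and GOLGA7 lie to the left.

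Arf and Sar GTPases start the assembly of coats, with SAR1 proteins recruiting COPII at the ER and their exchange factors and GAPs setting the cycle. Of 25 SNPs in 6 genes 8 were called, 7 with the reference higher. SAR1A held 4 of these within 7 bp of each other upstream of the gene, at 26189914 to 26189921 of chromosome 25. They were called heterozygous in 18, 18, 15 and 14 animals, in which the reference share averaged 0.752 ± 0.0733, 0.833 ± 0.0671, 0.832 ± 0.0535 and 0.842 ± 0.0542 (SD). Every heterozygous animal was above 0.5 at all 4. The synonymous SAR1A SNP at 26190374 ranged from 0.400 to 0.663 in 12 animals, 8 above and 4 below 0.5, and was not called. ARFGAP1, which ends the cycle of ARF1, was at 0.585, with 8 of 10 animals above 0.5 and none below.

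COPI coats carry membrane from the Golgi back to the ER and reach lipid droplets. In 4 subunit genes 11 of 21 SNPs were called, 7 with the reference and 4 with the alternate allele higher, and 9 passed the F test. COPA, the alpha subunit, had a missense SNP called heterozygous in all 18 animals at 109669349 of chromosome 1. The alternate allele was higher in 16 animals and the reference in 2 (0.340 to 0.520, median 0.447, F test adjusted p = 8.65e-05). COPA is known in other mammals as a transcript recoded by A-to-I RNA editing, but the strand of the alleles was not used here and whether this SNP is an edited base was not tested. COPE, the epsilon subunit, was above 0.5 in 9 of 9 animals by a narrow margin, from 0.522 to 0.613 over 3586 reads (exact sign-flip test p = 0.00391).

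COPG1, the gamma subunit, carried 16 SNPs along 16113 bp of chromosome 19, and 8 were called, 5 with the reference and 3 with the alternate allele higher. At 58946447, annotated in an intron and a noncoding transcript, the 8 heterozygous animals lay between 0.644 and 0.758 (mean 0.703 ± 0.0409 SD). The SNP 65 bp further on, 58946512, split the animals. PS910, RS903 and RS943 were at 0.365, 0.385 and 0.389, whereas the other 8 were at 0.592 to 0.704. Those 8 were the animals heterozygous at 58946447, and the 3 with low shares were not. Summed over all 11, the share was 0.560 with a dispersion of 6.67, where 1 is counting error, and the F test did not call it (adjusted p = 0.209). The 3 shifts the other way were smaller. At 58941963 11 of 11 animals lay below 0.5 (0.369 to 0.483) and at 58943858 8 of 8 (0.444 to 0.493), whereas at 58941239 10 of 13 lay below and 2 above (0.426 to 0.528). The 8 animals heterozygous at 58946447 were also those heterozygous at 58930399, 58933603, 58936424, 58938339, 58941191 and 58943858. Their mean shares there were 0.531, 0.478, 0.507, 0.504, 0.531 and 0.464. In the 7 pairs of called COPG1 SNPs with strongly correlated genotypes, the higher alleles lay on the same haplotype in 4 and on opposite ones in 3.

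TMED proteins pack cargo into these coats. Of their 16 SNPs 3 were called, all with the alternate allele higher, and 1 passed the F test: TMED3 at 0.458, with 9 of 11 animals below 0.5 (0.368 to 0.527, adjusted p = 0.0226). TMED1 was at 0.448 with 7 of 9 animals below 0.5, and its F test gave an adjusted p = 0.145. Its call in the likelihood ratio test was lost without RS903 (0.463) or without RS919 (0.466).

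COPII coats carry cargo out of the ER. They held 83 SNPs in 10 genes, of which 16 (19.3%) were called and 6 passed the F test. SEC24C, a cargo-binding subunit, was above 0.5 in 12 of 13 animals and below in none (0.5 to 0.669, median 0.583, F test adjusted p = 6.79e-06). The missense SNP of SEC31B, an outer coat subunit, had shares of 0.521 in RS919, 0.578 in RS943, 0.623 in RS903, 0.636 in PS910 and 0.721 in RS947. All 5 leaned to the reference, and an exact sign-flip test over 5 animals cannot go below the p = 0.0625 found (F test adjusted p = 0.0380). SEC16A, which marks ER exit sites, was more scattered at a missense SNP called heterozygous in all 18 animals (0.278 to 0.758, 13 above and 5 below, F test adjusted p = 0.0217).

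The SEC genes also include the channel through which proteins enter the ER. In 6 genes of the translocon and signal peptidase 17 of 39 SNPs were called (43.6%), 16 with the reference higher, and 9 passed the F test. SEC62, a translocon partner, had a single SNP, a missense change at 215433738 of chromosome 1, with 1026 reference and 154 alternate reads. Its 10 heterozygous animals lay between 0.828 and 0.893, with a median of 0.875 (permutation p = 0.00204, F test adjusted p = 2.19e-14). SEC61G, a channel subunit, was above 0.5 in 11 of 12 animals over 6561 reads (0.490 to 0.638, adjusted p = 1.36e-07). SEC61A1, the channel itself, had 9 of 16 SNPs called, all with the reference higher and none beyond 0.572. It was described after its values were seen, since 28 of the linked pairs of called SNPs considered below were its own.

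SEC63, another translocon partner, had 17 SNPs of which 4 were called. The pair at 29312738 and 29312739 in the 3' UTR was called heterozygous in 18 and 17 animals. At the first, shares ran from 0.381 to 0.897 with a median of 0.661, and 14 animals were above and 4 below 0.5 (F test adjusted p = 0.000412). The other 2 calls, at 0.552 and 0.570 in 8 animals each, lay 2.2 and 0.8 kb from the pair and did not pass the F test (adjusted p = 0.170 and 0.168). The 13 SNPs that were not called lay between 0.465 and 0.552.

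**Figure D4:**
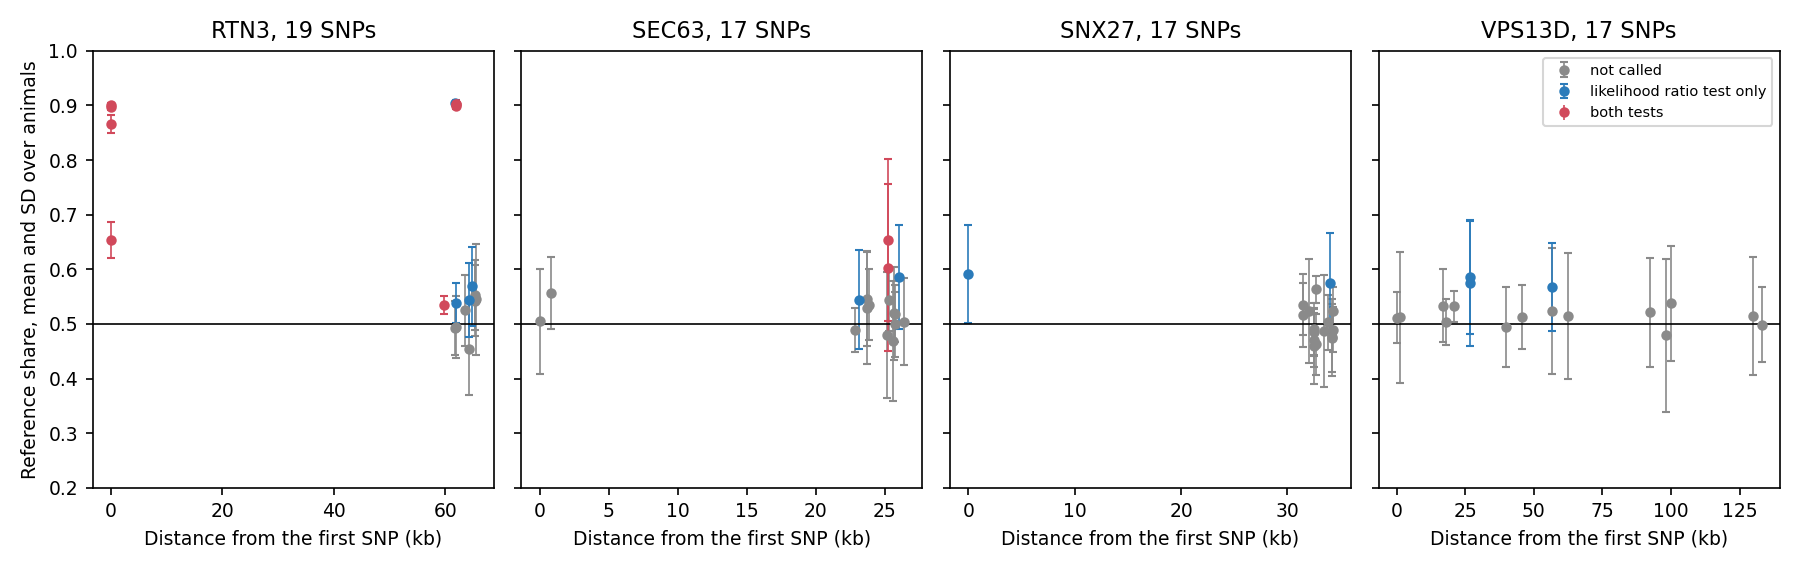
Mean reference share with its SD over heterozygous animals (vertical axis, no unit) against distance in kb from the first SNP, in the 4 member genes with the most SNPs, coloured by the tests that called each SNP. In RTN3 a set of SNPs at 0.867 to 0.904 lies at both ends, one at 0.653 beside it and the rest near 0.5, in SEC63 the neighbouring pair stands out, and in SNX27 and VPS13D no SNP passed both tests.

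Reticulons shape the tubules of the ER. All 12 called reticulon SNPs belonged to RTN3, which had 19 SNPs over 65411 bp of chromosome 21, and all 12 had the reference higher. The strongest, a missense C-to-G change in a splice region at 41355521, was called heterozygous in all 18 animals, with 5476 reference and 842 alternate reads. The shares were close together, from 0.833 to 0.905 with a median of 0.867 and an SD of 0.0165, and the dispersion of 0.852 was below that of counting error (F test adjusted p = 8.17e-27, permutation p = 1e-05, the smallest these resamples can give). The adjacent base, 41355520, was also heterozygous in all 18 but stood lower, at 0.653 ± 0.0330 (SD).

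A further 6 RTN3 SNPs were at 0.898 to 0.904 and were called heterozygous in only 1 to 4 animals. They lay at 41355524 and 41355525, and 61.7 to 62 kb from the first in the 3' UTR at 41417262, 41417466, 41417468 and 41417470. In the animals called homozygous at these SNPs, 5.45% to 8.29% of reads carried the other allele. The other 11 SNPs lay between 0.448 and 0.569, and 4 of them were called. For instance 41415211, over 6 animals, was above 0.5 in each, but only at 0.514 to 0.553. Reads of near-identical gene copies could not be separated in the counts, and their part in the RTN3, SAR1A, RAB2A and SEC62 shares was not tested.

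RTN4, the reticulon also known as Nogo, had 1 SNP, a missense change at 68943495 of chromosome 3, and the highest dispersion between animals of any member SNP. The reference share was 0.412 in RS903, 0.472 in RS943, 0.481 in RS930, 0.487 in RS902 and 0.605 in RS926, each on 1304 to 2043 reads. RS903 and RS926 differed from 0.5 on opposite sides, and the sum over the 5 animals was 0.499 (adjusted p = 0.900, dispersion 36.4). Without RS926 the sum was 0.461 and without RS903 it was 0.521, and each was then called, in opposite directions (adjusted p = 2.86e-08 and 0.00328).

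SNAREs drive fusion, with NSF recycling them and Munc18 proteins (STXBP) guiding their assembly. In 17 genes 11 of 41 SNPs were called, 9 with the reference higher, and 4 passed the F test. STX6, a SNARE of the trans-Golgi and of GLUT4 vesicles, gave 0.561 in PS910, 0.645 in RS905, 0.646 in RS929, 0.667 in RS926, 0.692 in RS947, 0.736 in RS930 and 0.758 in RS902. Its 7 animals were all above 0.5 (exact sign-flip test p = 0.0156, the smallest that 7 animals allow, F test adjusted p = 0.000737). The other STX6 SNP, 39 bp away and heterozygous in 7 animals, was at 0.568 and did not pass the F test (adjusted p = 0.121). STXBP3 (Munc18c), which binds the SNARE of GLUT4 fusion, leaned the same way in 7 of 8 animals (0.486 to 0.750, F test adjusted p = 0.0252), as did STXBP2 in 7 of 8 (0.375 to 0.724, adjusted p = 0.0462). NSF was at 0.575 with 5 of 7 animals above 0.5. It missed the F test (adjusted p = 0.115) and lost its call without RS918 (0.551).

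STXBP6 (amisyn) had shares of 0.400 in RS969, 0.421 in RS933, 0.448 in RS918, 0.5 in RS917, 0.556 in RS903, 0.562 in RS943, 0.739 in RS947, 0.759 in RS905 and 0.824 in RS937. The last 3 stood apart, while the other 6 lay on both sides of 0.5. The sum was 0.623 with a dispersion of 4.91 and an F test adjusted p = 0.0563.

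**Figure D5:**
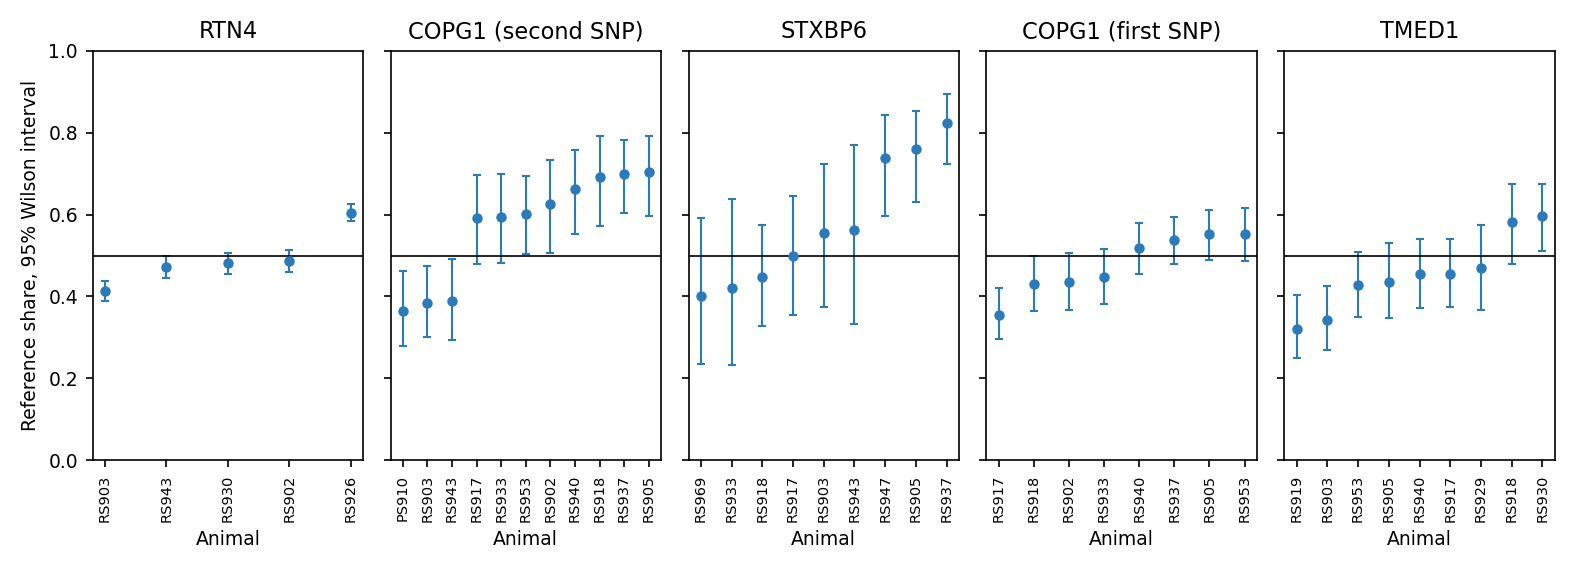
Reference share in each heterozygous animal with its 95% Wilson interval (vertical axis, no unit), for the 5 member SNPs with the highest dispersion between animals. At RTN4 the intervals of RS903 and RS926 lie on opposite sides of the line at 0.5, and at the second COPG1 SNP PS910, RS903 and RS943 lie below it while 8 animals lie above.

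Tethering complexes formed the largest group, with 120 SNPs in 30 genes of the exocyst, TRAPP, COG, GARP, HOPS and CORVET complexes. AI was called at 34 SNPs, 24 with the reference and 10 with the alternate allele higher, and 19 passed the F test. TRAPPC11, a TRAPP subunit needed between ER and Golgi, accounted for 11 of the 34 and 9 of the 19. At 13134659, a splice donor and missense position of chromosome 26, all 16 heterozygous animals were above 0.5 (0.531 to 0.857, median 0.725, F test adjusted p = 4.33e-08). The neighbours 1 and 4 bp away averaged 0.734 ± 0.0834 and 0.737 ± 0.0833 (SD) in 17 animals each.

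TRAPPC11 had further called SNPs away from that cluster. At 13135244, 13135269 and 13135283 the summed shares were 0.648, 0.668 and 0.681 in 10 animals, with 10, 9 and 10 of them above 0.5. At 13134954, 13145563 and 13147576 they were 0.334, 0.348 and 0.359 in 5 animals, each with all 5 below 0.5. With 5 animals the exact sign-flip test of 13134954 gave p = 0.0625, the smallest possible, while its F test gave an adjusted p = 0.00153. Not every called SNP nearby passed the F test. At 13136624, in the same 10 animals as at 13135244, 13135269 and 13135283, 5 were above and 5 below 0.5 (0.382 to 0.716, mean 0.537, permutation p = 0.338). The likelihood ratio test still called it, with the reference allele higher in the summed reads. In all 10 pairs of called TRAPPC11 SNPs with strongly correlated genotypes the higher alleles lay on the same haplotype. Only called SNPs entered these pairs, and some of the SNPs lie close enough to share reads. None of the 6 SNPs outside the cluster that both tests called had a close neighbour. At these 6, at most 0.727% of reads in homozygous animals carried the other allele.

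EXOC6B, an exocyst subunit, held the only stop-lost SNP among the members, at 94056804 of chromosome 3. It was called heterozygous in all 18 animals, with a reference share of 0.476 to 0.750 and a median of 0.651, 14 above and 2 below 0.5. At a synonymous SNP 3 bp away, again heterozygous in all 18, the order was turned: 0.243 to 0.524 with a median of 0.340, 16 below and 1 above. The F test adjusted p was 0.000469 and 6.31e-05. In each animal the alternate reads at the first SNP equalled the reference reads at the second, 235 in sum at both. The alternate allele of the first thus went with the reference allele of the second, and the 2 results are not independent. The other 3 EXOC6B SNPs were at 0.517, 0.548 and 0.538 in 13, 9 and 11 animals and were not called. COG2, a subunit of the COG complex of the Golgi, was above 0.5 in 9 of 9 animals at a missense SNP in a splice region (0.533 to 0.674, exact sign-flip test p = 0.00391). Of its other 3 SNPs, 2 were called with the alternate allele higher, at 0.440 and 0.433, and neither passed the F test (adjusted p = 0.0793 and 0.0752). In 2 of the 3 linked pairs of called COG2 SNPs the higher alleles lay on opposite haplotypes.

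ESCRT proteins sort receptors into multivesicular bodies. They had 7 SNPs in 5 genes, of which 2 were called, both also by the F test: VPS37C at 0.587 (10 of 12 animals above 0.5, adjusted p = 0.0322) and VPS28 at 0.542 (5 of 6, adjusted p = 0.0304). The bulk lipid transfer proteins of the VPS13 family had 4 of 25 SNPs called, all with the reference higher. Only VPS13C, at 0.573 with 7 of 9 animals above 0.5, passed the F test (adjusted p = 0.0470), and in VPS13D none of 17 SNPs did: its shares lay between 0.492 and 0.587, with 3 calls by the likelihood ratio test.

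Sorting nexins and retromer return receptors from endosomes. In 16 genes including SORT1, 17 of 61 SNPs were called, 15 with the reference higher, and 6 passed the F test. SNX6, a retromer-associated nexin, gave 0.583 in RS903, 0.608 in RS917, 0.612 in RS943, 0.638 in RS933, 0.649 in RS918, 0.658 in RS902 and 0.681 in PS910. All 7 were above 0.5 within a narrow range (exact sign-flip test p = 0.0156, F test adjusted p = 4.69e-05), whereas the other SNX6 SNP, 24.8 kb away, was at 0.490 in 9 animals and was not called (adjusted p = 0.627). SNX8 and SNX9 were at 0.583 and 0.560 with F test adjusted p = 0.0278 and 0.0303. Sortilin, SORT1, a receptor needed to form GLUT4 vesicles, was at 0.568 (0.427 to 0.667, 7 of 10 animals above 0.5), and its F test gave an adjusted p = 0.0556. SNX27, which sorts GLUT4 and other receptors, had 17 SNPs, mostly in the 3' UTR of 5 heterozygous animals, and shares of 0.461 to 0.587. It had 2 calls and none by the F test, and the larger was lost without RS937 (0.559).

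Clathrin coats and their adaptors act at the plasma membrane and the trans-Golgi. Of 63 tested SNPs in 15 genes 17 were called, 16 with the reference higher, and 11 passed the F test. AP1B1, the large beta subunit of the trans-Golgi adaptor AP-1, had 5 of its 8 SNPs called, all heterozygous in all 18 animals. At 68133629 of chromosome 17, a missense SNP, shares were 0.621 to 0.938 with a median of 0.719, every animal above 0.5 (F test adjusted p = 8.23e-09). The next base gave 0.741 ± 0.103 (SD), and the group at 68141940, 68141945 and 68141947 gave 0.633 ± 0.0531, 0.715 ± 0.0439 and 0.714 ± 0.0445. The remaining 3 AP1B1 SNPs, heterozygous in 11 or 12 animals, averaged 0.491, 0.531 and 0.531 and were not called.

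Dynamin 2 (DNM2), which cuts vesicles off the membrane, was above 0.5 in 9 of 9 animals at 12926619 (0.510 to 0.638, exact sign-flip test p = 0.00391, F test adjusted p = 5.14e-05). Of its 8 SNPs 4 were called, all with the reference higher, and 3 passed the F test. In both of the 2 pairs of called DNM2 SNPs with strongly correlated genotypes the higher alleles lay on opposite haplotypes. AP4B1 was at 0.570 in 14 animals, 12 above and 2 below 0.5 (F test adjusted p = 0.0302). The clathrin heavy chain, CLTC, was near equal on 4812 reads: 0.481 to 0.563 in 8 animals, 0.520 in sum. Its F test gave an adjusted p = 0.118, and its call was lost without RS917 (0.512) or without RS953 (0.518).

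Golgins hold the Golgi stack together and had 3 of 27 SNPs called, 1 by the F test. That one was the lowest share of all members, in GOLGA7, which is grouped here by its name and is a partner of the enzyme that palmitoylates Ras. At 34917270 of chromosome 26, a missense SNP, all 16 heterozygous animals were below 0.5, from 0.1 to 0.462 with a median of 0.232 (permutation p = 1e-05, F test adjusted p = 2.81e-08). The missense SNP 12 bp away was at 0.537 in 7 animals and was not called (adjusted p = 0.164). The patterns also caught 5 genes of another function by name, SNAPC3, SNAPC4, SEC14L1, VPS72 and RTN4IP1, with 5 of 15 SNPs called. Among them SNAPC3, of the complex that transcribes small nuclear RNA genes, was at 0.407 with 6 of 8 animals below 0.5 (F test adjusted p = 0.0106). SEC14L1 was at 0.567 with 7 of 8 above (adjusted p = 0.0257).

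Genes named for their part in GLUT4 vesicles were measured in 11 of 21 cases, and 9 of their 26 SNPs were called, 7 with the reference and 2 with the alternate allele higher. Genes of traffic to lipid droplets were measured in 9 of 16 cases, and 14 of 36 SNPs were called, 9 and 5 by direction, with 11 passing the F test. The calls made up 34.6% of the SNPs of the first list and 38.9% of the second, against 38.0% of all SNPs. By the F test it was 19.2% and 30.6%, against 24.5%. The median shares of the lists were 0.523 and 0.507, where that of all SNPs was 0.519.

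Across the members, 41 SNPs in 17 genes were called by both tests at a distance of at least 0.1 from an equal share, 36 with the reference and 5 with the alternate allele higher. Regardless of the F test, the likelihood ratio test called 44 of 628 tested member SNPs at that distance, against 2939 of 24244 over all SNPs. Of the 41, 25 had a neighbour within 5 bp and 19 were called heterozygous in 15 or more animals. At 17 the homozygous animals carried more than 3% reads of the other allele. None of these 3 features was found at 12 SNPs, which were the single SNPs described above of COG2, COPG1, RAB11A, SEC31B, SNX6 and STX6 and the 6 of TRAPPC11. Heterozygosity in 15 or more animals was itself less common among member SNPs (6.98%) than among all (9.89%), and 26 of those 44 SNPs were called (59.1%, against 68.2% of all such SNPs).

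Several SNPs of a gene can be set against each other, since one imbalanced haplotype would raise the linked alleles together. In 815 pairs of SNPs within a gene whose genotypes were strongly correlated (at least 0.8 in size), the higher alleles lay on the same haplotype in 484. Where both SNPs were called, this held for 43 of 65 pairs in 17 genes, but for only 20 of the 42 pairs more than 100 bp apart (47.6%). It held for 42 of 49 pairs whose alternate alleles travelled together, but for 1 of 16 pairs in which the reference allele of one SNP travelled with the alternate allele of the other. In 51 of the 65 pairs both SNPs had the reference allele in excess. Leaving out SEC61A1, a choice made after its values were seen, 27 of 37 pairs lay on one haplotype, 26 of 33 and 1 of 4 by kind, and without TRAPPC11 too 17 of 27. Pairs share animals and often reads, so these counts are a description.

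Spread between animals beyond counting error was found at 48 member SNPs, or 7.67%, against 15.4% of all SNPs. Of the 48, 31 were not called for AI, against 1660 of the 3717 such SNPs in the whole table. The median dispersion was 1.33, compared with 1.41 over all SNPs. The animals themselves were alike in sum: the reference allele held 52.0% to 55.4% of the reads at heterozygous member SNPs, with a mean of 53.2% ± 0.787 (SD, n = 18), and every animal was above 50%.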

How the data were processed

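Total RNA of 18 fetal PRAT samples had been sequenced as paired end libraries. The submitters' processing notes name STAR and GATK 3.4-46. By the study's methods the authors aligned to Oar v3.1, allowing up to 10 mismatches, and took genotypes from the RNA, so genotype calls and allele counts rest on one set of reads. Every listed SNP had at least 10 reads of each allele in 5 animals of any genotype call, and 24079 of 24355 had them in 5 heterozygous animals. The deposited values are counts of reads of each allele per SNP and animal, not normalized, with the genotype call of each animal. The table also gives the authors' chi-square score, its p-value and the share of reads to the reference, which the authors computed from reads summed over heterozygous animals and which were not used here. One animal is spelled PS910 in the table and RS910 in the labels.

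Counts of animals called heterozygous were summed, and the study's Poisson likelihood ratio test (2 times the log likelihood ratio, 1 degree of freedom) was fitted to 24244 SNPs with Benjamini-Hochberg adjustment. The quasi-binomial F test divided this statistic by the Pearson dispersion between animals, moderated with limma 3.58.1 in R 4.3.3, over 24205 SNPs. Heterogeneity was tested by Pearson chi-square. Sign-flip permutation tests of the mean share, two-sided, were exact under 10 animals and used 100000 resamples otherwise (Python 3.11.15, numpy 2.4.6, scipy 1.17.1, pandas 2.3.3). Reads of animals called homozygous were used where an animal had at least 20 reads. The fits were tested on simulated data. Reads carry no molecular identifiers, so the 95% Wilson intervals and the limits for a count of 0 cover counting error only.

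The members, roles and lists were chosen with earlier results of these data known. Named were, per role, up to 3 genes by the largest distance from 0.5 called by both tests in at least 5 animals, 3 genes with the most SNPs (VPS13D, tied with SEC63 and SNX27, fell out by alphabetical order but is plotted with them), the 5 SNPs with the highest dispersion, stop and splice site SNPs, 5 missense SNPs, genes with at least 2 calls in each direction, and 20 fixed genes, of which 12 were measured. Alternatives were the unadjusted p, the F test, another null share, coverage minimums of 10 and 30 reads, down-sampling to 50 reads, leaving out groups of SNPs or genes, and leaving out each animal.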

Additional observations from a re-analysis of the deposited data

Results flagged for a closer look

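At 7 of the named SNPs, reads of animals called homozygous, which entered no comparison, carried the allele the animal was called to lack in at least 1% of reads and in more than the 3 reads taken as the limit. At the second TRAPPC11 SNP of the cluster, 13134663, it was 13.5% (5 of 37 reads, 1 animal), and at 13134659 it was 15.8% (12 of 76, 2 animals). SEC62 had 7.48% (65 of 869, 8 animals), GOLGA7 7.02% (4 of 57, 2 animals), SAR1A 26189921 6.51% (20 of 307, 4 animals) and RAB2A 39061829 5.32% (24 of 451, 3 animals). COG2 had 1.09% (4 of 368, 9 animals). Over the 608 member SNPs with such animals, 21 (3.45%) exceeded 3%, compared with 3.06% of all SNPs. Of these, 20 could be tested and 19 were called for AI (95%), against 91.7% of such SNPs in the whole table. No single animal stood apart from the others, by the gap to its nearest neighbour over the range, at any of the 26 named SNPs with 4 to 10 heterozygous animals.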

How the results depend on the processing

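No paired analysis was possible because the fetuses formed a single group. Member SNPs called, called with the reference higher, called with the alternate higher and genes with a call numbered 179, 138, 41 and 91. The F test gave 97, 81, 16 and 56, and a minimum of 30 reads of each allele in 5 animals gave 76, 63, 13 and 44, with 31 heterogeneous SNPs in place of 48; fewer SNPs reach that minimum. With the unadjusted p, 62 SNPs had the alternate higher (243 in all). With the null at the median share of 0.519 the split was 80 and 95. Down-sampling to 50 reads left 15 heterogeneous SNPs and 125 calls. A minimum of 10 reads, leaving out SNPs heterozygous in 15 or more animals, SNPs with a close neighbour, or genes of the translocon and of another role kept 168, 147, 138 and 157 calls. Leaving out 1 animal at a time gave 166 to 188 calls, 131 to 146 with the reference and 35 to 43 with the alternate higher, 86 to 93 genes, a median share of 0.514 to 0.517 and 40 to 52 heterogeneous SNPs. At the named SNPs, leaving out an animal heterozygous there kept 564 of 572 values on the same side of the threshold and in the same direction, and RTN4 ranged from 0.461 to 0.521. Among the 50 named SNPs, 7 lost their call in the F test, 7 after down-sampling and 5 under the other null share, where COPG1 58933603 and RTN4 gained one. For lost calls other than those with fewer reads or animals the cause was not tested. In the lowest bin of depth, up to 360 reads, 19.6% of member SNPs and 18.7% of all SNPs were called. The size of the shifts was not compared between bins, and the part of depth in the calls was not tested.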

Other observations

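The following were picked out after their values were seen. AP2M1, a subunit of the plasma membrane clathrin adaptor, had a missense SNP with no animal called heterozygous, yet 7.14% of 2282 reads carried the other allele over 18 animals called homozygous. SNX17 34310679 had 27.1% of such reads in 17 homozygous animals and 1 heterozygous animal at 0.302. RAB12 41439644 had 13.1% in 16 homozygous animals and 0.830 in sum over 2 heterozygous ones, while its other 2 SNPs were at 0.522 and 0.497. SNX9 81160799 had 5.86% in 15 homozygous animals and 0.890 over 3 heterozygous ones, while the SNX9 SNP at 81161778 was at 0.560.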
